A study of Mus musculus with 6 samples.

Results

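The 10 genes described here encode the FOS and JUN proteins of the AP-1 transcription factor (Fos, Fosb, Fosl1, Fosl2, Jun, Junb and Jund), the zinc finger factors EGR1 and EGR2, and the stress factor ATF3. They were chosen by symbol, and all 10 were found among the 41079 genes listed and had enough counts to be tested, with 14618 genes tested in all. RNA was sequenced from primary microglia of C57Bl/6N mice whose brains were taken at 1 to 3 days of age, in 3 control and 3 stimulated libraries. Brain cells from 2 to 3 neonates per flask were grown for weeks with L-929 conditioned medium, a source of macrophage colony-stimulating factor. The microglia were then shaken off in repeated harvests, so that each library came from pooled animals. The harvest used for these libraries is not stated. After a brief adhesion step with serum, both groups were kept in serum-free DMEM/F12 with gentamicin. Stimulated cells also received human TGFbeta, IL34 and CX3CL1 at 100 ng/mL each, to which the study's methods add cholesterol, insulin-transferrin-selenium and a collagen IV coating, so the agents cannot be told apart. The time between the change of medium and lysis is not given for these libraries in the sources used here.

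Immediate early genes are switched on by signals that reach a cell without the need for new protein, mostly through MAP kinases acting on factors already bound at their promoters, and their mRNAs are short-lived. AP-1 is a dimer joined through leucine zippers. JUN proteins can pair with each other or with a FOS protein, whereas FOS proteins need a JUN partner to bind DNA, so the mixture of members sets which dimers can form. In macrophages and microglia AP-1 works beside PU.1 at enhancers of activation genes, and cell isolation is itself known to raise these mRNAs.

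Total counts were between 20628148 and 27261839 per library. The summed level of 8 microglia markers was 7977 to 8606 CPM (counts scaled to library size) in control and 12441 to 15940 CPM in stimulated libraries. The 6 neuron markers summed to 3.07 to 4.72 CPM in control and 5.30 to 6.34 CPM in stimulated libraries. Nefl was the 1 of them that passed the test, higher at 2.30 on the log2 scale, from 4, 7 and 6 to 19, 35 and 21 counts. The 5 astrocyte markers found summed to 27.1 to 30.0 CPM in control and 18.3 to 20.8 CPM in stimulated libraries, and Aldh1l1 was the 1 of them that passed the test, at -1.83 on the log2 scale. The 6 oligodendrocyte markers summed to 135 to 151 CPM in control and 164 to 202 CPM in stimulated libraries. Most of this sum was Mbp, at 90.8 to 95.9 CPM in control and 108 to 134 CPM in stimulated libraries. It was the 1 of them that passed the test, higher at 0.34 on the log2 scale. Fibroblast markers summed to 31.0 to 48.8 CPM in 5 libraries and to 151 CPM in stimulated library 3. The 3 endothelial markers stayed between 1.66 and 2.90 CPM. The 5 markers of border macrophages and monocytes summed to 309 to 352 CPM in control and 57.4 to 69.1 CPM in stimulated libraries. Nearly all of this sum was Mrc1, at 307 to 351 CPM in control and 56.7 to 67.0 CPM in stimulated libraries. Of the 2 with enough counts to be tested, Mrc1 passed and Ccr2 did not. The sums of the microglia, neuron, astrocyte, oligodendrocyte and border macrophage lists were thus separate between the groups, and their part in the results was not tested. Stimulated library 1 stood apart in that its deviations from the gene means rose with gene length (Spearman's rho = 0.33 across 14618 genes, which are not independent replicates), against -0.24 to 0.07 in the other libraries. In bulk RNA, fewer cells of a kind and less RNA per cell cannot be told apart.

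The family did not move as a block. Of the 10 genes, 4 were higher (Fosb, Fosl2, Junb and Egr1) and 3 were lower (Fos, Jun and Jund) in stimulated cultures, and 3 (Fosl1, Egr2 and Atf3) did not pass the test. All calls are at a false discovery rate of 0.05 (edgeR, quasi-likelihood, Benjamini-Hochberg) over the 14618 genes, of which 29.8% passed, 14.7% as higher and 15.2% as lower. The CPM values of the groups did not overlap for 7 of the 10 genes, the same 7 that were called. This held for 43.9% of all genes tested, 21.4% as higher and 22.5% as lower. The size of the changes was moderate in 6 of the 7, with log2 fold changes between -0.97 and 0.53, and Fosb alone reached 1.99. The median over the 10 genes was 0.066, against 0.0079 over all genes tested. When counts were scaled by library size alone, the median over all genes tested moved to -0.12, 32.3% of the called genes were higher in place of 49.1%, and none of the 10 genes changed direction.

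**Figure D1:**
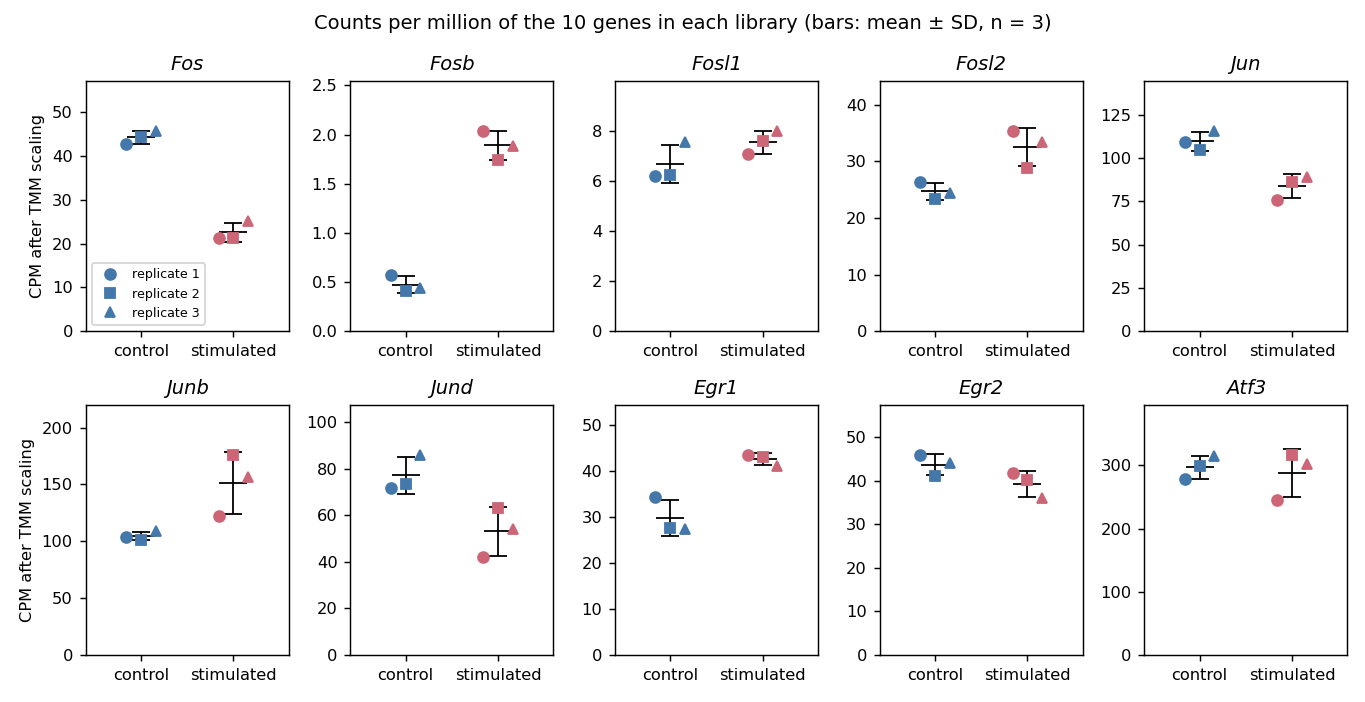
Level of each gene in CPM after scaling (vertical axes, from 0) in 3 control (blue) and 3 stimulated (red) libraries, with a symbol for each replicate number and black bars for the mean ± SD. The groups are separate for Fos, Fosb, Fosl2, Jun, Junb, Jund and Egr1 and overlap for Fosl1, Egr2 and Atf3.

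Fos, the founding member of the FOS family and the classic marker of recent signalling, lies on chromosome 12 of GRCm39 from 85520658 to 85524047. It had 42.7, 44.2 and 45.6 CPM in control libraries 1 to 3 and 21.2, 21.3 and 25.1 CPM in stimulated libraries 1 to 3. Every stimulated library was thus far below every control library, and the control libraries lay close together. Group means were 44.2 ± 1.47 and 22.5 ± 2.19 CPM (SD, n = 3 each), or -0.97 ± 0.10 on the log2 scale (± SE, edgeR adjusted p = 4.96e-05), with a 95% interval from -1.19 to -0.75. Across 16 alternative settings the log2 fold change stayed between -1.11 and -0.93.

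Fosb, whose protein also has a short splice form that lacks the activation domain, lies on chromosome 7 from 19036621 to 19043976. It was the rarest of the 10 genes and went the opposite way to Fos. Its counts were 13, 10 and 12 in control and 43, 41 and 39 in stimulated libraries, which is 0.57, 0.41 and 0.44 CPM against 2.04, 1.75 and 1.89 CPM. The counts were few but uniform within each group. The log2 fold change was 1.99 ± 0.30 (SE, 95% interval 1.32 to 2.67, edgeR adjusted p = 0.000693), a 3.98-fold difference in level. Only 3.15% of the genes tested had a larger change in either direction. On the log2(FPKM + 1) scale, which compresses low genes, the change of Fosb was 0.38, still past the threshold with limma.

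Fos and Fosb both carry, upstream of their start sites, a CArG box, the element bound by serum response factor through which growth factors and stress reach immediate early genes. The stretches around these sites are shown, and the part of this element in the changes was not tested. Sequences are 5′ to 3′ on the gene's strand, read from GRCm39 with transcript starts of GENCODE M39, with the CArG box in capitals.

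Fos (chr12:85520305-85520414, plus strand): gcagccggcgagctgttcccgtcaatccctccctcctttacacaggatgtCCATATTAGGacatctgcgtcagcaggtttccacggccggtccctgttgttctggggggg
Fosb (chr7:19044183-19044292, minus strand): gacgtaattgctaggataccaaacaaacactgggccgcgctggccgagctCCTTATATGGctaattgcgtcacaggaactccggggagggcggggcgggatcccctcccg

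The site began 303 bases upstream of the start in Fos and 266 bases upstream in Fosb. A CArG box on either strand was present in 2.76% of 21751 windows of the same length, the 500 bases before the canonical start of each protein-coding gene, and in 3 of the 9 windows searched for these genes. These were the windows of Fos, Fosb and Egr2, and Egr2 did not pass the test. The window of Egr1 was not analysed here.

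Fosl1 and Fosl2 encode FRA1 and FRA2, FOS relatives that lack the strong activation domain of FOS and persist longer after a stimulus. Fosl2, on chromosome 5 from 32292707 to 32315186, had 26.4, 23.4 and 24.3 CPM in control and 35.3, 28.8 and 33.5 CPM in stimulated libraries. The groups were separate by a small margin, between 26.4 and 28.8 CPM, and in FPKM they overlapped. Fosl2 shares 425 bases of exons with Gm72529 on the other strand, which is not among the genes listed. The log2 fold change of Fosl2 was 0.40 ± 0.11 (SE, edgeR adjusted p = 0.0186). With library size alone the log2 fold change was 0.27 and the adjusted p-value 0.16, and limma on the deposited FPKM values gave 0.20 to 0.25 with adjusted p-values of 0.192 to 0.221. The call was also lost without control replicate 2, control replicate 3 or stimulated replicate 3 (edgeR adjusted p = 0.0891, 0.0757 and 0.0703), so the rise of Fosl2 rests on the scaling and on single libraries.

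Fosl1, on chromosome 19 from 5497575 to 5505974, had 6.21, 6.24 and 7.54 CPM in control and 7.06, 7.58 and 7.98 CPM in stimulated libraries. The groups overlapped, and the log2 fold change was 0.18 with a 95% interval from -0.14 to 0.49 (edgeR adjusted p = 0.401). Its level is uncertain for another reason. It shares 1163 bases of exons with Ccdc85b on the other strand, which had a mean of 387 counts in control libraries against 167 for Fosl1, and the strand setting of the counting is not given. Ccdc85b itself had a log2 fold change of 0.10. Fosl1 also shares 241 bases of exons with Gm59617 on the other strand, which is not among the genes listed.

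Jun, whose protein is activated by JNK, lies on chromosome 4 from 94937271 to 94940459. It had 109, 105 and 116 CPM in control and 76.0, 86.2 and 88.9 CPM in stimulated libraries. No stimulated library reached the lowest control library. Its log2 fold change was -0.39 ± 0.09 (SE, edgeR adjusted p = 0.00858), and the gene kept its call under all 16 alternatives. Jun shares 528 bases with the antisense gene Junos, which had 10 to 33 counts per library. Jund, whose protein resting cells hold at a steady level, lies on chromosome 8 from 71151599 to 71153265. Of its span of 1667 bases, 877 are shared with exons of Gm11175 on the other strand, which is not among the genes listed. As the strand setting of the counting is not given, the level of Jund is uncertain too. Jund had 71.7, 73.6 and 85.9 CPM in control and 41.9, 63.0 and 54.2 CPM in stimulated libraries. The groups were separate, but stimulated library 1 was well below the other two. The log2 fold change was -0.54 ± 0.14 (SE, edgeR adjusted p = 0.0174). Without control replicate 2 or control replicate 3 the adjusted p-values were 0.0518 and 0.0686, with log2 fold changes of -0.57 and -0.46, and without stimulated replicate 1 Jund stayed past the threshold.

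Of the 9 windows searched, 2 held the 8-base element TGACNTCA, to which dimers of JUN with ATF proteins bind, namely those of Jun and Jund. The window of Fos, the other gene called lower, did not hold it. This element was found on either strand in 10.7% of the 21751 windows. Its part in the changes was not tested. The stretches around the sites are shown with the element in capitals.

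Jun (chr4:94940460-94940554, minus strand): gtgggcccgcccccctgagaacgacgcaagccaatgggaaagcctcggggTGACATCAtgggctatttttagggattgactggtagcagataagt
Jund (chr8:71151335-71151442, plus strand): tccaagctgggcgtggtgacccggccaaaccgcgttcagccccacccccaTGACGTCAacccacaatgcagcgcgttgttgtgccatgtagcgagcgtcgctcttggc

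In Jun the site began 45 bases and in Jund 214 bases upstream of the start. The pattern TGANTCA was found once, in the window of Fos, and in 12.3% of all windows. It is wider than the AP-1 heptamer, whose central base is C or G, and the site in Fos was TGAATCA. The EGR element GCGNGGGCG, present in 5.45% of all windows, was found in the windows of Fosb, Jun and Jund, where Jund held 3 copies. None of these sites overlapped a site of another element. The window of Egr2 held 2 CArG boxes, and those of Fosl1, Fosl2, Junb and Atf3 held none of the 4 elements.

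Junb moved against Jun and Jund. Its protein is a weaker activator that can restrain JUN at shared sites, and the gene lies on chromosome 8 from 85701113 to 85705359. It had 103, 102 and 109 CPM in control and 122, 176 and 156 CPM in stimulated libraries. The control libraries were nearly equal, and the stimulated ones spread widely but all lay above them. The log2 fold change was 0.53 ± 0.13 (SE, edgeR adjusted p = 0.00965), and leaving out control replicate 2 gave 0.51 with an adjusted p-value of 0.057. Junb shares 173 bases of exons with Prdx2 on the other strand, a gene with 3370 counts on average in control libraries against 2611 for Junb. Another 145 bases are shared with Gm65321 on the other strand, which is not among the genes listed. As the strand setting of the counting is not given, the level of Junb is uncertain too. The log2 fold change of Prdx2 was -0.085, with a 95% interval from -0.39 to 0.22.

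**Figure D2:**
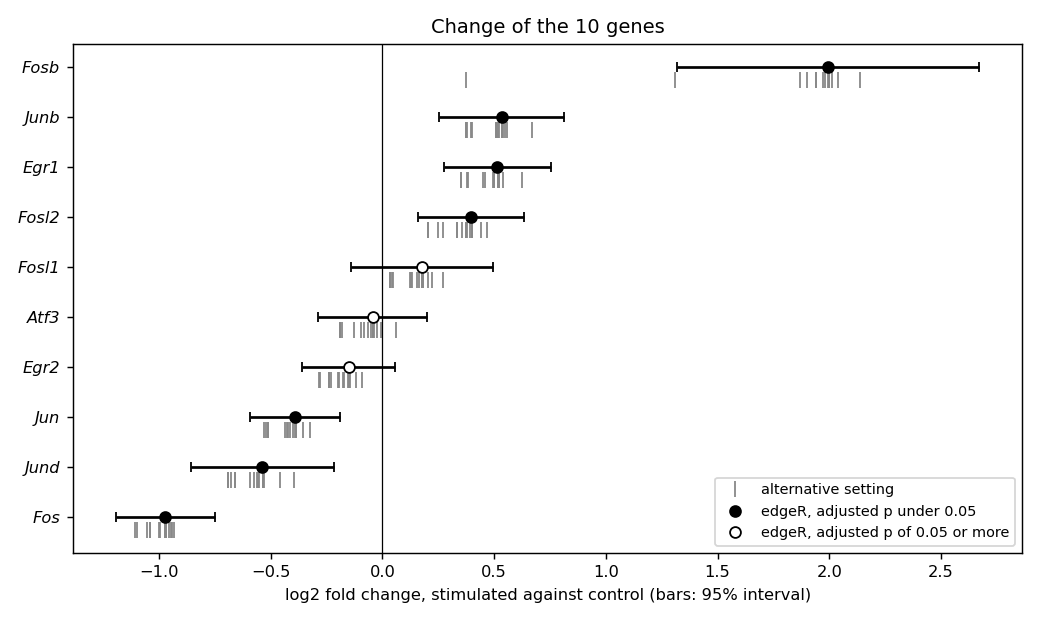
Log2 fold change of each gene, stimulated against control, as points with 95% intervals, filled where the adjusted p-value was under 0.05. Grey ticks are the alternative settings: those of Fosb reach down to 0.38 on the log2(FPKM + 1) scale, those of Fos stay between -1.11 and -0.93, and those of Atf3 lie on both sides of 0.

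The 2 EGR genes encode zinc finger factors that bind GC-rich elements. EGR1 is induced by growth factors and by stress, and EGR2 is known for its part in hindbrain patterning and Schwann cell myelination. Egr1 had 34.4, 27.7 and 27.4 CPM in control and 43.6, 43.0 and 41.2 CPM in stimulated libraries. The stimulated libraries were nearly equal and all above control library 1, the highest of the control group. Its log2 fold change was 0.51 ± 0.11 (SE, edgeR adjusted p = 0.00494), and it stayed past the threshold under all 16 alternatives, with values between 0.35 and 0.62. Egr2, on chromosome 10 from 67371305 to 67378018, had 45.9, 41.0 and 44.1 CPM in control and 41.8, 40.1 and 36.0 CPM in stimulated libraries. These values overlapped. The log2 fold change of Egr2 was -0.15 with a 95% interval from -0.36 to 0.058 (edgeR adjusted p = 0.267). In FPKM, which is set per length, the ratio of Egr1 to Egr2 was 2.21, 2.00 and 1.84 in control and 3.08, 3.17 and 3.38 in stimulated libraries. The ratio was higher in every stimulated library, with p = 0.1 by exact permutation (two-sided), below which this design cannot go.

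Atf3, whose protein pairs with JUN or with itself and is induced by many stresses, was the most abundant of the 10 and took 38.6% to 41.5% of their counts in every library. It lies on chromosome 1 from 190902493 to 190950241. It had 278, 300 and 314 CPM in control and 245, 317 and 303 CPM in stimulated libraries. The stimulated group held both the lowest and the highest value. Its log2 fold change was -0.045 with a 95% interval from -0.29 to 0.20 (edgeR adjusted p = 0.808), and 0.059 without stimulated replicate 1. In the deposited FPKM values, which carry another scaling, the stimulated libraries of Atf3 (118 to 143) and of Egr2 (3.71 to 4.38) lay below all control libraries (146 to 158 and 4.70 to 5.24), and limma on these values did not call either gene.

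Levels can be compared between genes only per length, so the order was taken from FPKM. In control libraries it ran from Atf3 (153 ± 6.29 FPKM, SD, n = 3) through Junb (57.8 ± 0.40), Jun (34.9 ± 0.71), Jund (27.2 ± 1.72), Fos (21.3 ± 0.45), Egr1 (9.89 ± 1.52), Egr2 (4.89 ± 0.30), Fosl1 (3.96 ± 0.30) and Fosl2 (3.55 ± 0.28) to Fosb (0.13 ± 0.02). Among neighbours in this order only Fosl1 and Fosl2 overlapped. In stimulated libraries Atf3, Junb, Jun and Jund kept their places at 134 ± 13.7, 75.6 ± 11.0, 24.2 ± 1.71 and 16.9 ± 2.75 FPKM (SD, n = 3 each). Fos, at 9.87 ± 1.13 FPKM, had dropped behind Egr1 at 12.8 ± 0.64 FPKM. Fosl2, Fosl1 and Egr2, at 4.25, 4.08 and 3.99 FPKM, could no longer be ordered, because each overlapped its neighbour.

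Within each family the make-up differed between the groups, and these shares do not depend on how the libraries are scaled. Fos took 72.9%, 74.8% and 73.1% of the summed FPKM of the 4 FOS genes in control libraries and 51.0%, 53.0% and 54.5% in stimulated libraries. The remainder went to the other three genes. Fosl2 went from 12.3% ± 1.01 to 22.8% ± 2.20, Fosl1 from 13.7% ± 1.07 to 21.9% ± 1.21, and Fosb from 0.44% ± 0.09 to 2.48% ± 0.23 (SD, n = 3 each; exact permutation p = 0.1 for each). With shares of raw counts, which are not set per length, the difference between the groups was 2.97 percentage points for Fosl1 in place of 8.22, and 17.9 for Fosl2 in place of 10.49. The share of Fosl1 was higher although its own level did not pass the test, and its FPKM was 3.96 in control and 4.08 in stimulated libraries. Among the JUN genes, Junb took 48.7%, 48.6% and 47.3% in control and 63.3%, 66.2% and 64.5% in stimulated libraries. Jun went from 29.2% ± 0.44 to 20.9% ± 2.05 and Jund from 22.6% ± 1.12 to 14.5% ± 0.62 (SD, n = 3 each). All 7 shares were separate between the groups, each with p = 0.1 in a two-sided exact permutation test and 0.1 after adjustment over the 7, which is the smallest value 3 libraries against 3 allow. The ratio of Jun to Junb, 0.61 ± 0.01 in control, was 0.32 ± 0.04 in stimulated libraries, and that of Fos to Fosl2 was 6.03 ± 0.52 against 2.34 ± 0.28 (SD, n = 3 each; exact permutation p = 0.1 for both).

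**Figure D3:**
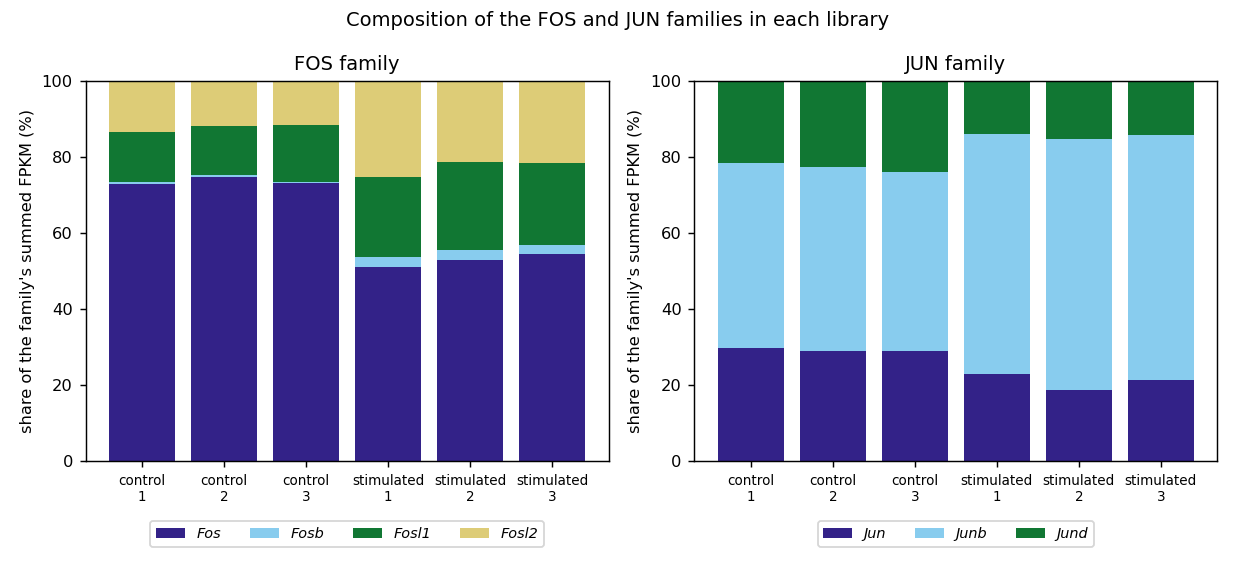
Share of each gene in the summed FPKM of the 4 FOS genes (left) and of the 3 JUN genes (right), one stacked bar per library, in percent. Fos takes 72.9% to 74.8% in control and 51.0% to 54.5% in stimulated libraries, and Junb 47.3% to 48.7% and 63.3% to 66.2%.

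Other immediate early genes also went both ways. Of 25 listed, 23 were tested, 7 were higher and 5 were lower at the same threshold, a share of 52.2% against 29.8% of all genes. Without control replicate 3 the number called was 7 in place of 12. Their median log2 fold change was 0.08, and it was between -0.059 and -0.018 with library size alone, with at least 10 counts in every library, or with limma on FPKM. The highest was Sgk1, a kinase gene induced by serum and glucocorticoids, which went from 106, 112 and 127 to 1173, 1309 and 1272 CPM, or 3.44 ± 0.11 on the log2 scale (± SE). The lowest was Mcl1, an antiapoptotic BCL2 relative, at -1.11 ± 0.08 (SE). Egr3, a relative of Egr1 and Egr2, fell by 0.84 on the log2 scale (standard error 0.26, edgeR adjusted p = 0.0321), from 50, 54 and 59 counts in control libraries to 23, 25 and 31 in stimulated libraries. Myc had a log2 fold change of -0.60, Btg2 of -0.43 and Zfp36, which encodes a protein that destabilizes short-lived mRNAs, of -0.31, all past the threshold. Rhob and Gadd45a were higher, at 1.28 and 1.24. Ccn2, a matrix-associated growth regulator, was also higher at 1.45, with 2.94 and 3.96 CPM in stimulated libraries 1 and 2 and 8.37 CPM in stimulated library 3, the library in which fibroblast markers summed to 151 CPM. The part of those cells in this value was not tested.

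In the wider group of leucine zipper factors, 8 of 20 tested genes were lower and 2 were higher, and 10 did not pass. Over all genes tested, 15.2% were lower and 14.7% higher. The median log2 fold change was -0.28. Batf2, an AP-1 partner induced by interferon, fell from 67, 108 and 101 counts in control libraries to 8, 12 and 9 in stimulated libraries, or -3.04 ± 0.29 on the log2 scale (± SE), the lowest of the list. Maf, which drives macrophage genes, went from 269, 305 and 266 to 74.8, 74.8 and 67.5 CPM, or -1.95 ± 0.09 on the log2 scale (± SE). The small MAF gene Maff was the highest at 0.79 ± 0.15 (SE).

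Among 8 genes for serum response factor, its partners and EGR cofactors, 3 were lower and 1 was higher (50% called, against 29.8% of all genes). Elk3 was the 1 that rose, from 57.2 ± 0.74 to 127 ± 1.28 CPM (SD, n = 3 each), or 1.15 ± 0.08 on the log2 scale (± SE). ELK3 is a partner of serum response factor that acts mainly as a repressor until it is phosphorylated. Srf itself had 41.0, 39.7 and 39.7 CPM in control and 30.1, 32.3 and 31.2 CPM in stimulated libraries, a log2 fold change of -0.36. Elk1 at -0.47 was the lowest and Nab1, a corepressor of EGR proteins, was at -0.34, both past the threshold in edgeR, which Elk1 lost without control replicate 3 or stimulated replicate 3 (adjusted p = 0.0667 and 0.052). Of 27 tested genes of the RAS and MAP kinase cascade, 2 were higher and 4 lower (22.2% called, against 29.8% of all genes), and the number called was 10 to 13 with library size alone, the replicate number as a block, the length trend removed or limma on FPKM. Mapk3, the gene of ERK1, was the highest at 0.66 ± 0.11 (SE). Mapk11, encoding p38 beta, was the lowest at -1.25 ± 0.27 (SE), and Mapk14, encoding p38 alpha, went from 143, 138 and 135 to 90.2, 87.8 and 91.0 CPM, a log2 fold change of -0.63. Kinase activity was not measured.

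Genes often described as AP-1 targets were mostly lower where they passed. Of 15 tested, 8 were lower, 2 were higher and 5 did not pass, so that 66.7% were called against 29.8% of all genes, with a median log2 fold change of -0.54, which was -1.07 without stimulated replicate 3. The lowest was Mmp9, the gelatinase, whose counts were 595, 606 and 1015 in control libraries and 14, 10 and 54 in stimulated libraries, or -4.60 ± 0.43 on the log2 scale (± SE). The highest of these stimulated values was in library 3, without which the log2 fold change was -5.75. Il1b at -3.33, Cxcl2 at -3.22, the collagenase gene Mmp13 at -2.97, Ccl2 at -2.63, Tnf at -1.30 and Ccnd1 at -1.05 were also lower. Il6 was the highest at 2.23 ± 0.34 (SE), from 6, 7 and 9 counts to 30, 29 and 32. Timp1, the inhibitor of matrix metalloproteinases, was at 1.54, with 13.8 CPM in stimulated library 3 against 4.78 and 7.96 CPM in the other stimulated libraries, and the part of fibroblasts in this value was not tested. Many of these genes answer to NF-κB and interferon as well, and no list here separates AP-1 from them.

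Heat shock genes, which are raised with immediate early genes by handling and dissociation, were listed beside them. Of 10 tested, 1 was higher and 4 were lower, a share of 50% against 29.8% of all genes, and 3 were called without control replicate 1 or control replicate 3. The median log2 fold change was -0.16, which was -0.29 with library size alone, -0.30 with limma on log2(FPKM + 0.1) and -0.077 without stimulated replicate 1. Hspa1a was the highest at 0.67 ± 0.17 (SE), from 13.6, 22.7 and 18.9 to 26.2, 30.9 and 31.0 CPM, and Hspa8 was the lowest at -0.48 ± 0.11 (SE).

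**Figure D4:**
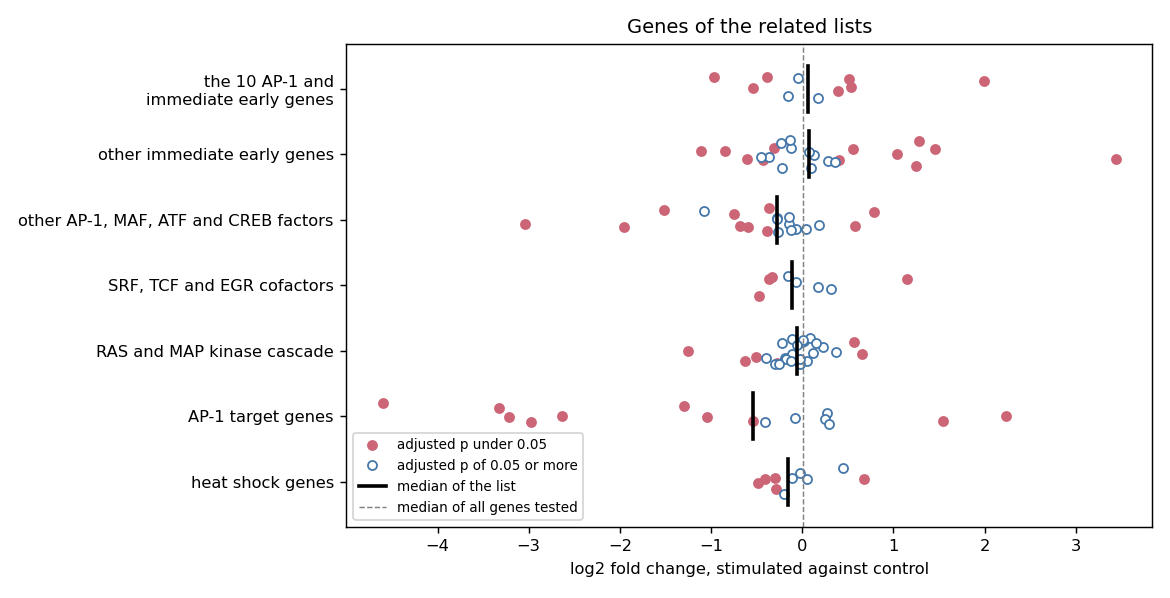
Log2 fold change of every tested gene of the 10 and of the 6 related lists, with filled points where the adjusted p-value was under 0.05, black bars for list medians and a dashed line for the median of all genes tested (0.0079). Medians run from -0.54 for AP-1 target genes to 0.08 for other immediate early genes, and each list holds genes on both sides of 0.

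As a description of pattern, the log2 CPM of 9828 other genes with a mean of at least 5 CPM was correlated with that of Fos, Jun and Egr1 over the 6 libraries. Among those closest to Fos were Slfn2 (Pearson's r = 0.9996) and Phf11a (r = 0.999). Those closest to Jun were Ssrp1, Tubb2b and Adsl (r from 0.9979 to 0.9998), and those closest to Egr1 were Bcl9l, Lrp5 and BC021767 (r from 0.9944 to 0.9976). The points share 2 groups of 3 libraries and the same scaling, and the genes named beside Fos and Jun had negative and those beside Egr1 positive log2 fold changes.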

How the data were processed

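RNA from 6 libraries of cultured mouse microglia, 3 control and 3 stimulated, was analysed, with groups and replicate numbers taken from the labels. Reads were aligned by the authors with HISAT2 against mm39, the build GRCm39, and assigned to genes with featureCounts, and the authors deposited raw counts and FPKM values per gene. The versions, annotation, strand setting and the formula of the FPKM values are not given in the sources used here. The counts were tested with edgeR 4.0.16 under R 4.3.3 (filterByExpr, TMM factors, quasi-likelihood test without further terms), with Benjamini-Hochberg adjustment over all genes tested and 0.05 as threshold. Standard errors (SE) were derived from the F statistic, and 95% intervals use the test's degrees of freedom. The common dispersion was 0.016. CPM values are after TMM scaling. Family shares were computed on the deposited FPKM values and compared with exact permutation tests over libraries.

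The genes and lists were chosen with earlier results of these data known. Named genes are the 10, the highest and lowest gene of each list, genes that share exons with the 10, and the 3 genes most like each of Fos, Jun and Egr1. Results for some genes that this rule or the lists would name are not reported here. The further list genes named (Egr3, Myc, Btg2, Zfp36, Rhob, Gadd45a, Ccn2, Maf, Srf, Nab1, Mapk14, Il1b, Cxcl2, Mmp13, Ccl2, Tnf, Ccnd1 and Timp1) were chosen after their values were seen. Alternatives were DESeq2 1.42.0, scaling by relative log expression or by library size alone, other count filters, a block for the replicate number, leaving out single libraries, limma 3.58.1 on log2(FPKM + 1) with and without an FPKM minimum of 1 and on log2(FPKM + 0.1), and, added after seeing the data, the removal of a gene length trend from each library. Replicates of a group differed by more than sampling noise. The study's methods define samples as independent biological replicates, while the labels do not say which cultures or animals the libraries came from. Sequences were read from the GRCm39 genome with GENCODE M39 starts.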

Additional observations from a re-analysis of the deposited data

How the results depend on the processing

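Over all genes, 4360 passed the threshold, and the number was between 4068 and 5218 under the other settings and between 3249 and 5234 with 1 library left out. Of the 10 genes, 7 were called, and between 4 and 7 with 1 library left out, the 4 being without control replicate 2. Fos, Fosb, Jun and Egr1 kept their direction and their call under every alternative that gave a value, and Fosl1 and Egr2 were called under none. Fosb gave no value where genes needed a mean FPKM of at least 1. Fosl2 lost its call when scaled by library size alone (0.27) and in limma on log2(FPKM + 1) (0.20, also with the FPKM minimum) and log2(FPKM + 0.1) (0.25). With 1 library left out, log2 fold changes ranged from 0.33 to 0.47 for Fosl2, from 0.40 to 0.67 for Junb, from -0.69 to -0.39 for Jund and from -0.13 to 0.059 for Atf3, and these settings ended the calls named in the report and turned the sign of Atf3. The number of called genes of the RAS and MAP kinase cascade, 6, was 11 under library size alone, while limma gave 13 on log2(FPKM + 1), 12 on log2(FPKM + 0.1) and 11 under the FPKM minimum, and it was 10 with the length trend removed. With 1 library left out, it ranged from 7 to 13 in place of 12 for other immediate early genes (7 without control replicate 3) and from 3 to 6 in place of 5 for heat shock genes (3 without control replicate 1 or control replicate 3). The median log2 fold change of other immediate early genes, 0.08, was -0.055 with library size alone, -0.018 with at least 10 counts in every library, -0.055, -0.059 and -0.029 with limma on log2(FPKM + 1), log2(FPKM + 0.1) and with the FPKM minimum, and between -0.18 and 0.15 with 1 library left out. The median of AP-1 target genes, -0.54, was between -1.07 and -0.50 with 1 library left out, the first without stimulated replicate 3. It moved by more than the mean standard error of its genes under 5 of the 16 alternatives, of which 1 left out a library. The cause of these moves was not tested. Family shares kept their direction with raw counts in place of FPKM, where those of Fosl1 and Fosl2 moved by the amounts in the report, and with each library left out.

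With the replicate number as a block, 4924 genes were called, all 7 of the 10 among them, and 10 of the RAS and MAP kinase cascade. Deviations of same-numbered libraries from their group means correlated at 0.40, -0.03 and 0.24 across genes, and control libraries 2 and 3 were most like stimulated libraries 1 and 2, so the numbers were not taken as pairs. Low counts limit Fosb, with 10 to 13 counts per control library.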
